A study of Oryza sativa with 12 samples.

Results

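A-type and B-type cyclins are the cyclins that carry plant cells through S phase, G2 and mitosis. They were described here across rice inflorescences of the transgenic line TGMS-Co27 and wild-type H1493 grown at high and low temperature. The members were all genes of the array whose RefSeq name or synonym begins with CYCA or CYCB and a digit, each read by its brightest probe set that was not marked as cross-reacting. Of 9 such genes among the reference names, 7 had a probe set, out of 17905 annotated genes on the array, and CYCA3-1 and CYCB1-5 were not matched to a probe set and are not analysed here. The 7 genes were CYCA1-4, CYCA2-1 and CYCA3-2 of the A type, and CYCB1-1, CYCB1-3, CYCB2-1 and CYCB2-2 of the B type. RefSeq lists CYCB1;1 as a further synonym of CYCB1-3, so these names are used as RefSeq's hyphenated forms and the genes are fixed by their symbols, LOC4327547 for CYCB1-1 and LOC4326914 for CYCB1-3.

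The study hybridised total RNA from meiosis-stage inflorescences of field-grown plants to 12 arrays, 3 biological replicates in each of 4 groups. H1493 (Hejiang 19), a japonica variety, is the wild type and the background of TGMS-Co27, a transgenic line that over-expresses an aberrant transcript of Ugp1 carrying the Ubi1 intron, so that Ugp1, which encodes UDP-glucose pyrophosphorylase, is cosuppressed. TGMS-Co27 is male sterile at high temperature and fertile at low temperature. H1493HT and Co27HT were grown in summer at Wuhan with a daily average of 28 °C at harvest, and H1493LT and Co27LT in winter at Lingshui with 20 °C, so temperature, day length, site and season cannot be told apart in any comparison between HT and LT. TGMS-Co27 is 1 transgenic line, and the number of plants behind each replicate is not given in the sources used here.

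Cyclins bind cyclin-dependent kinases (CDKs), switch them on and are destroyed again in each cycle. In plants, A-type cyclins act from S phase to early mitosis, and B-type cyclins are made in G2 and mark cells about to divide, which makes their transcripts common measures of how much division a tissue holds. Young rice inflorescences contain dividing floral tissues beside the male and female cells that enter meiosis. In RNA from whole inflorescences, fewer dividing cells and less cyclin RNA per cell cannot be told apart.

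All values are deposited log2 signals. A gene was called changed at an adjusted p under 0.05 in limma, adjusted over all 57258 probe sets tested, and the share of all probe sets called in a comparison is given as its background. Between 43.7% and 46.1% of probe sets were called present per array, and the median log2 signal ran from 5.22 to 5.74. All 7 cyclins were called present on 12 of 12 arrays and had a log2 signal averaging 6 or more over them, which is called bright here. The SD of the replicates had a median of 0.08 over the 28 combinations of gene and group (0.01 to 0.24). The probe set for the cosuppressed gene Ugp1 had log2 signals of 13.40 ± 0.04 in H1493HT, 11.40 ± 0.04 in Co27HT, 13.61 ± 0.03 in H1493LT and 12.89 ± 0.03 in Co27LT (mean ± SD, n = 3), lower in TGMS-Co27 on every array at both temperatures. Whether it also reads the transcript of the construct is not given in the sources used here.

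The cyclins were higher at low temperature in both lines. All 7 rose in Co27LT vs. Co27HT, by 0.54 to 1.55 on the log2 scale (1.45-fold to 2.92-fold), where 29.8% of all probe sets were called and 15.1% were called higher. In H1493LT vs. H1493HT, 6 of the 7 rose, by 0.49 to 1.50 (1.40-fold to 2.82-fold), where 26.8% were called and 13.8% were called higher, and CYCA1-4 did not pass the test. The median difference of the 7 genes was 1.11 in TGMS-Co27 and 0.83 in H1493, against medians of -0.16 and -0.07 over all probe sets. Dim probe sets are seldom called. Among the 24891 bright probe sets, which include all 7 cyclins, 59.2% were called in TGMS-Co27 and 54.3% in H1493, and 31.9% and 29.2% were called higher, with median differences of 0.04 and 0.06. The share called higher moved with the scaling, from 12.2% with arrays centred on bright probe sets to 19.7% with arrays centred on the median of all in TGMS-Co27, and from 12.0% to 16.1% in H1493, while the counts of 7 and 6 cyclins held.

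**Figure D1:**
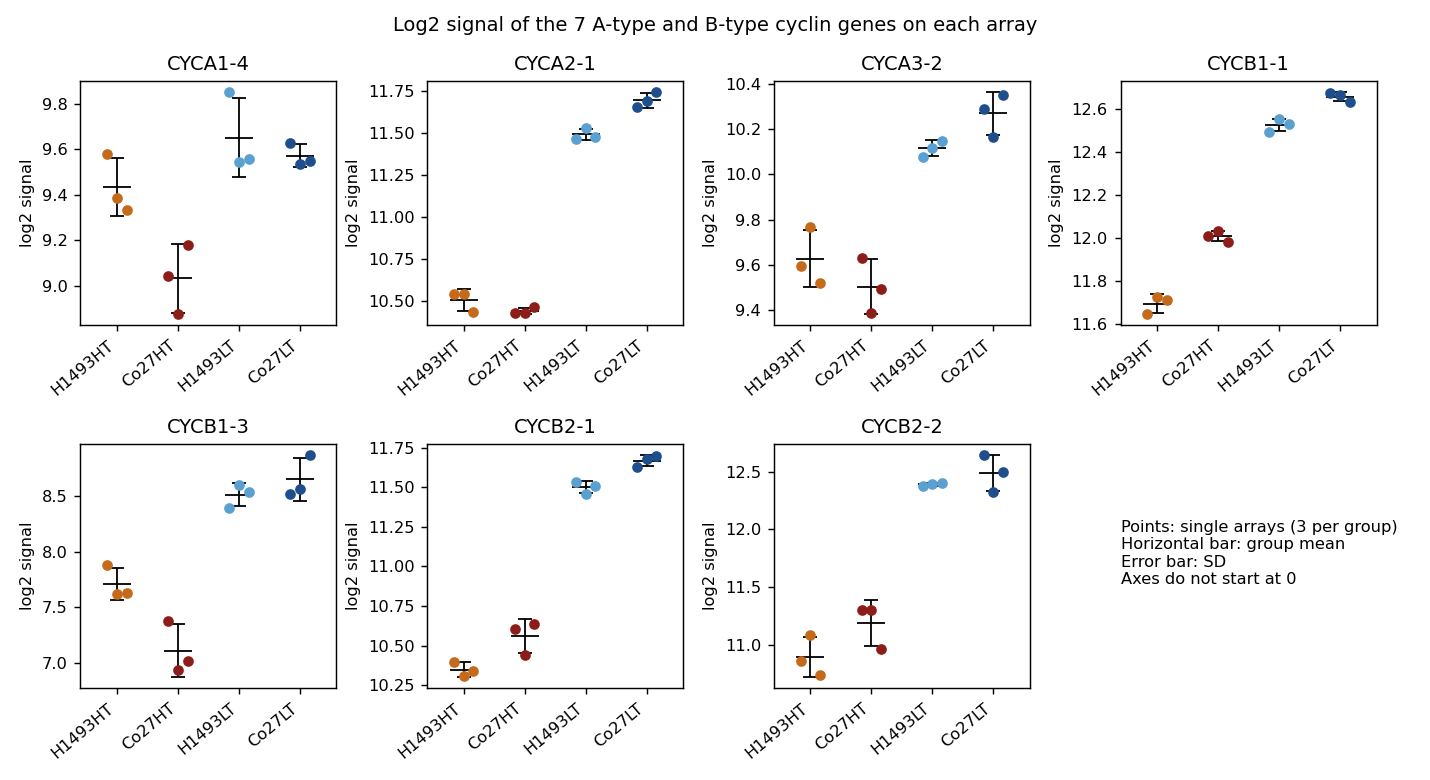
Log2 signal (vertical axes, not starting at 0) of each of the 7 cyclin genes on the 12 arrays, by group (horizontal axes). Points are single arrays, horizontal bars are group means and error bars are SDs (n = 3). In 6 panels every LT array lies above every HT array, and in the CYCA1-4 panel the lowest LT value, 9.54, lies under the highest HT value, 9.58.

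CYCA1-4 belongs to the cyclin A1 group, whose Arabidopsis member TAM is needed for the meiotic divisions. Its log2 signal was 9.58, 9.39 and 9.33 in H1493HT, 9.04, 8.87 and 9.18 in Co27HT, 9.85, 9.54 and 9.56 in H1493LT, and 9.63, 9.54 and 9.55 in Co27LT. Co27HT was lowest and overlapped with no other group, while the H1493HT values reached into the range of Co27LT. The gene rose by 0.54 in Co27LT vs. Co27HT (SE 0.12, adjusted p = 0.0089). In H1493 the difference was 0.22 (95% interval -0.06 to 0.50, adjusted p = 0.26).

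CYCA2-1 belongs to the A2 group, which in Arabidopsis works with B-type CDKs and holds back endoreduplication. It read 10.54, 10.55 and 10.43 in H1493HT, 10.43, 10.43 and 10.46 in Co27HT, 11.47, 11.53 and 11.48 in H1493LT, and 11.66, 11.69 and 11.74 in Co27LT. The HT groups overlapped, the LT groups did not, and the gap between the highest HT and the lowest LT array was 0.92. It rose by 1.26 in TGMS-Co27 (SE 0.08, adjusted p = 3.4e-06) and by 0.99 in H1493 (SE 0.08, adjusted p = 1.7e-05).

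CYCA3-2 is one of the A3 cyclins, a plant group expressed around S phase. Its signals were 9.59, 9.77 and 9.52 in H1493HT, 9.63, 9.39 and 9.49 in Co27HT, 10.08, 10.12 and 10.15 in H1493LT, and 10.29, 10.17 and 10.35 in Co27LT. Both HT groups lay below both LT groups, with a gap of 0.31. The rise was 0.76 in TGMS-Co27 (SE 0.10, adjusted p = 0.0004) and 0.49 in H1493 (SE 0.10, adjusted p = 0.0067).

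CYCB1-1 is of the B1 group, the classical marker of plant cells in G2 and mitosis. It gave 11.64, 11.73 and 11.71 in H1493HT, 12.01, 12.03 and 11.98 in Co27HT, 12.49, 12.55 and 12.53 in H1493LT, and 12.67, 12.66 and 12.63 in Co27LT. No neighbouring groups overlapped, and their order was H1493HT, Co27HT, H1493LT and Co27LT. The rise with low temperature was 0.65 in TGMS-Co27 (SE 0.07, adjusted p = 0.00012) and 0.83 in H1493 (SE 0.07, adjusted p = 3.4e-05).

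CYCB1-3, also of the B1 group, read 7.88, 7.62 and 7.63 in H1493HT, 7.38, 6.93 and 7.02 in Co27HT, 8.40, 8.60 and 8.54 in H1493LT, and 8.52, 8.57 and 8.87 in Co27LT. Co27HT lay below H1493HT with no overlap, whereas the LT groups overlapped. Its rise of 1.55 in TGMS-Co27 (SE 0.15, adjusted p = 5.7e-05) was the highest of the 7, and the rise in H1493 was 0.80 (SE 0.15, adjusted p = 0.0035). Its replicate SDs, 0.10 to 0.24, were among the widest of the members.

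CYCB2-1 and CYCB2-2 belong to the B2 group, the mitotic cyclins that partner B2-type CDKs in rice. CYCB2-1 gave 10.40, 10.31 and 10.34 in H1493HT, 10.61, 10.44 and 10.64 in Co27HT, 11.53, 11.46 and 11.51 in H1493LT, and 11.63, 11.68 and 11.70 in Co27LT. Its groups did not overlap and stood in the same order as those of CYCB1-1. It rose by 1.11 in TGMS-Co27 (SE 0.08, adjusted p = 1.2e-05) and by 1.15 in H1493 (SE 0.08, adjusted p = 1.3e-05).

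CYCB2-2 read 10.86, 11.08 and 10.74 in H1493HT, 11.30, 11.30 and 10.96 in Co27HT, 12.38, 12.39 and 12.40 in H1493LT, and 12.64, 12.33 and 12.50 in Co27LT. The lines overlapped at each temperature, and a gap of 1.02, the widest of the members, separated the HT from the LT arrays. The rise was 1.30 in TGMS-Co27 (SE 0.14, adjusted p = 8.3e-05) and 1.50 in H1493 (SE 0.14, adjusted p = 4.4e-05). A second probe set of the gene, marked as able to cross-react, rose by 1.33 and 1.45.

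The study's own threshold, a difference of 2-fold or more together with an unadjusted p under 0.05, was passed by 4 of the 7 in Co27LT vs. Co27HT (CYCA2-1, CYCB1-3, CYCB2-1 and CYCB2-2), where 18.2% of all probe sets passed it. In H1493LT vs. H1493HT it was passed by CYCB2-1 and CYCB2-2, 2 of 7, where 15.1% passed, with CYCA2-1 just under it at 1.98-fold. The groups did not overlap for 7 genes in the first comparison and 6 in the second, all higher at low temperature, where 20.0% and 20.3% of all probe sets, and 39.0% of the bright ones in both comparisons, were higher without overlap. Every cyclin call between temperatures held under the other scalings, low-signal filters and models tried and without any single array, except that the size criterion left the counts above.

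**Figure D2:**
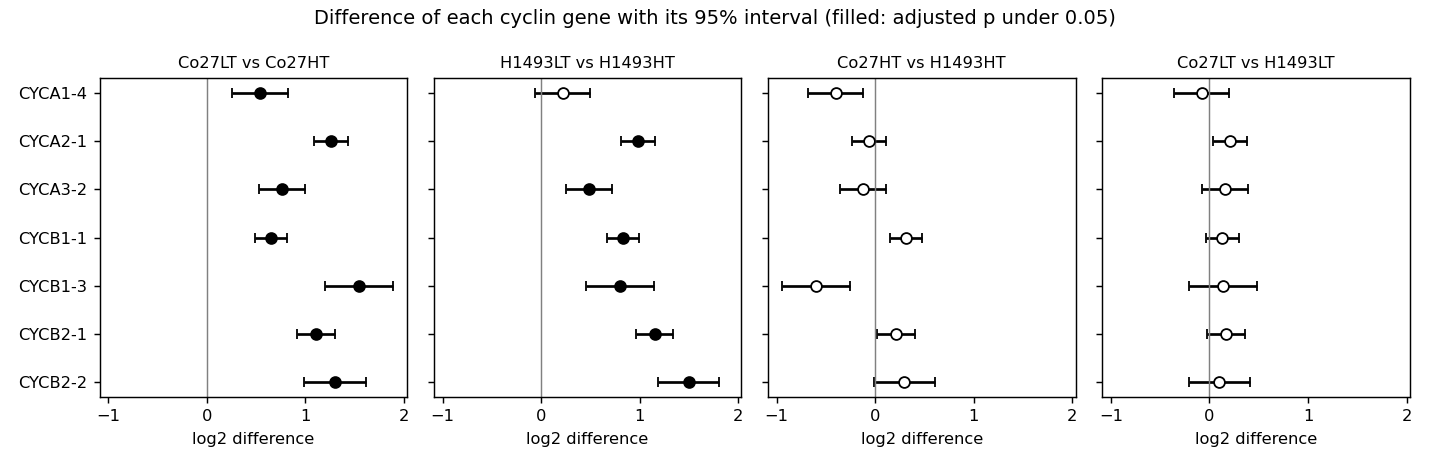
Log2 difference (horizontal axes) of each cyclin gene (vertical axis) in 4 comparisons, with limma's 95% interval as the error bar. Filled points have an adjusted p under 0.05, which covers 7 genes in Co27LT vs. Co27HT, 6 in H1493LT vs. H1493HT and 0 in both comparisons between lines.

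In Co27HT vs. H1493HT none of the 7 was called by limma, where 2.58% of all probe sets were called. Of the 7, 4 had an unadjusted p under 0.05, where 16.8% of all probe sets and 28.5% of the bright ones did. The same 4 did not overlap between the groups, where 22.5% of all probe sets and 37.2% of the bright ones did not. They went in opposite directions. CYCB1-1 was 0.31 higher in Co27HT (95% interval 0.15 to 0.48, adjusted p = 0.061) and CYCB2-1 0.21 higher (0.02 to 0.40, adjusted p = 0.24), whereas CYCB1-3 was 0.60 lower (log2 difference -0.60, interval -0.95 to -0.26, adjusted p = 0.080) and CYCA1-4 0.40 lower (-0.40, interval -0.68 to -0.12, adjusted p = 0.14). The remaining 3 had intervals that crossed 0. These adjusted values depended on the rest of the table. All 4 were called with only bright probe sets tested, where 23.3% were called, and with limma-trend and robust moderation, where 9.43% were. With low signals raised to a floor of 5, CYCB1-1, CYCB1-3 and CYCB2-1 were called (8.04% of all), and CYCA1-4, CYCB1-1 and CYCB1-3 with probe sets never called present left out (13.6%).

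In Co27LT vs. H1493LT, 0 of 7 were called by limma, where 1.58% of all probe sets were called. Only CYCA2-1 had an unadjusted p under 0.05 (difference 0.20, 95% interval 0.03 to 0.38, adjusted p = 0.37), where 10.2% of all probe sets and 15.1% of the bright ones did. CYCA2-1, CYCA3-2, CYCB1-1 and CYCB2-1 were higher in Co27LT with no overlap, by 0.13 to 0.20. Of all probe sets, 9.18% were higher without overlap, and of the bright ones 14.2%. The 7 differences ran from -0.08 for CYCA1-4 to 0.20 for CYCA2-1. CYCA2-1 was called with only bright probe sets tested (8.77% called), and CYCA2-1 and CYCB1-1 with the floor of 5 (3.20%).

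The difference between the lines in their response to temperature was tested as an interaction of line and temperature. It was not called for any of the 7, where 0.936% of all probe sets were called. It had an unadjusted p under 0.05 for CYCB1-3 and CYCA2-1, where 13.1% of all probe sets and 21.0% of the bright ones did. It was 0.74 for CYCB1-3 (95% interval 0.25 to 1.23, adjusted p = 0.18) and 0.27 for CYCA2-1 (0.03 to 0.52, adjusted p = 0.33), both with the wider change in TGMS-Co27. For CYCA1-4 it was 0.32 (-0.08 to 0.72, adjusted p = 0.50) and for CYCA3-2 0.28 (-0.05 to 0.61, adjusted p = 0.48). CYCB1-1, CYCB2-1 and CYCB2-2 had values under 0, from -0.20 to -0.04, with intervals that crossed 0. CYCA1-4, called in one line and not in the other, was thus not shown to differ between them. With only bright probe sets tested, CYCB1-3 and CYCA2-1 were called (12.6% of those tested), and with the floor of 5, CYCA2-1 and CYCB1-1 (4.28%).

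Across the 12 arrays the 7 genes varied together, as their shared difference between temperatures implies. The 21 pairs had Pearson correlations from 0.50 to 0.98 with a median of 0.93, as a description over arrays that share these groups. After each group's mean was taken away, the same pairs ran from -0.79 to 0.70 with a median of 0.10. Among 14444 other annotated genes read by bright probe sets, the 6 whose signals followed the mean of the cyclins most closely over the 12 arrays had correlations of 0.995 to 0.998. They were LOC4348804, which the study annotates as a putative peroxisomal 3-ketoacyl-CoA thiolase, LOC4346005, ARF12, an auxin response factor, ERG3, LOC4337735, and hox32, which encodes a START domain protein. Each was higher at low temperature, by 1.04 to 1.98 in TGMS-Co27 and 0.95 to 1.65 in H1493, a direction that follows from how they were picked.

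The rest of the cell cycle machinery was examined through gene lists, nearly all of whose members were bright, so that their counts stand against the 59.2% of bright probe sets called in TGMS-Co27 (31.9% higher) and the 54.3% called in H1493 (29.2% higher). Of 12 cyclin-dependent kinases and their cofactor, 7 rose and 3 fell in Co27LT vs. Co27HT, and 6 rose and 3 fell in H1493LT vs. H1493HT, with median differences of 0.42 and 0.26. CDKG-1 rose by 1.07 and 0.61, CDKA-2 by 0.96 and 1.14, and CDKC-1, of a group known for phosphorylating RNA polymerase, by 0.81 and 0.73 in TGMS-Co27 and H1493 respectively. CDKB2-1, a plant kinase made in G2 and mitosis and singled out here after its values were seen, rose by 0.76 (adjusted p = 0.0001) and 1.01 (adjusted p = 2.4e-05). CDKA-1, the kinase present throughout the cycle, had differences of 0.08 and 0.13 and was not called. CKS1, the small docking partner of CDKs, fell by 0.74 in TGMS-Co27 (adjusted p = 0.0013) and had -0.32 in H1493 (adjusted p = 0.090). CDKA-1 and CKS1 were also chosen after their values were seen.

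Of 6 CDK inhibitors, all bright, 0 rose and 4 fell in Co27LT vs. Co27HT, and 0 rose and 3 fell in H1493LT vs. H1493HT, with medians of -0.45 and -0.40. The shares called were near those of bright probe sets called in either direction, 59.2% and 54.3%. Of the bright probe sets, 31.9% and 29.2% were called higher, whereas every called inhibitor fell. EL2 and KRP5 had 0.22 and 0.08 in TGMS-Co27 and were not called there. KRP6, a Kip-related protein that binds and blocks CDKs, ran from 10.83 to 10.97 in Co27HT and 10.93 to 11.14 in H1493HT, and from 6.76 to 7.33 in Co27LT and 7.15 to 7.57 in H1493LT. It fell by 3.93 in TGMS-Co27 (15.3-fold, adjusted p = 5.6e-07) and fell by 3.64 in H1493 (12.5-fold, adjusted p = 1.2e-06), with no overlap of HT and LT arrays. SMR1, of the SIAMESE-related inhibitors, fell by 1.17 in TGMS-Co27 and fell by 1.14 in H1493. KRP1 fell by 0.49 in TGMS-Co27 (adjusted p = 0.0088), not called with each array centred on its median or with the 6 arrays alone, and had -0.04 in H1493.

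Of 19 genes of DNA replication, 14 rose and 2 fell in TGMS-Co27 and 14 rose and 0 fell in H1493, with medians of 0.83 and 0.80. MCM5 and MCM6, subunits of the helicase that opens replication origins, rose by 2.06 and 2.08 in TGMS-Co27 and by 2.08 and 1.81 in H1493. MCM5 lay between 9.57 and 9.83 on the HT arrays and between 11.65 and 11.85 on the LT arrays. MCM8, of the same protein family and named by the rule for lists, had -3.83 in TGMS-Co27 (adjusted p = 0.00025), but its mean log2 signal was 3.23 and it was called present on 1 of 12 arrays, so its size is not measured. All 3 genes of the list for transcription of mitotic and S-phase genes rose in both lines. RBR1, a retinoblastoma-related protein that restrains entry into S phase, rose by 1.23 and 1.13, RBR2 of the same family by 0.42 and 0.36, and MYB3R-2, of the MYB family that binds the control element shared by B-type cyclin genes, by 1.05 and 0.84. RSS1, which keeps rice cells dividing under salt stress and is degraded through the anaphase-promoting complex, was the only gene of the list for that complex and the spindle checkpoint that the annotation named, and it rose by 0.75 and 1.11. Of 19 genes of other cyclin types, 9 rose and 3 fell in TGMS-Co27 and 8 rose and 2 fell in H1493, shares near the 59.2% and 54.3% of bright probe sets called. CYCD3-1, CYCD5-3 and CYCD4-2 are D-type cyclins, which act at entry into the cycle. In TGMS-Co27 the first pair rose by 1.24 and 1.11 on the log2 scale and CYCD4-2 rose 2-fold, and in H1493 the log2 differences of the 3 were 1.23, 0.36 and 0.44. With each array centred on its median, the counts that rose and fell in TGMS-Co27 became 11 and 2 for the other cyclin types, 7 and 1 for the kinases and 1 and 2 for the inhibitors, and with arrays centred on bright probe sets 6 and 4, 6 and 3, and 0 and 4. In H1493 the kinases became 7 and 1 with the median and 5 and 3 with bright centring. The other cyclin types there became 5 and 2 both with bright centring and with quantile normalization. The inhibitors there became 0 and 2 with the median, and 0 and 4 with bright centring and with quantile normalization. In TGMS-Co27 quantile normalization gave 7 and 3 for the other cyclin types and 1 and 4 for the inhibitors. With the median, DNA replication became 16 and 1 in TGMS-Co27 and 16 and 0 in H1493. No called gene of these lists changed its sign between temperatures under the 3 scalings.

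**Figure D3:**
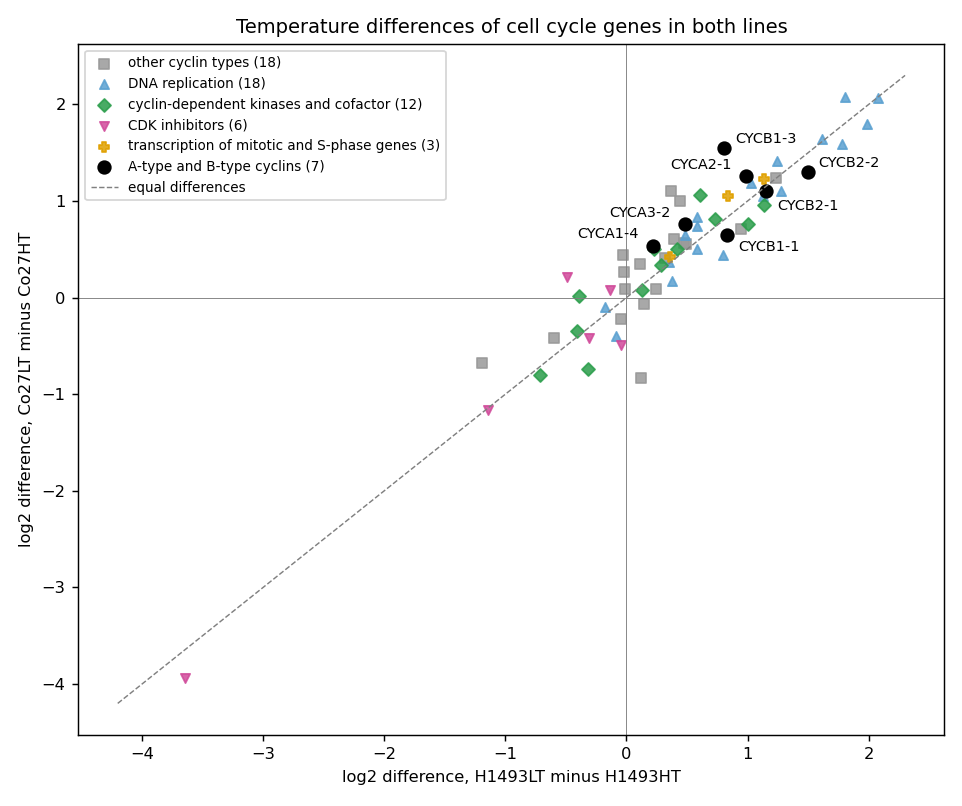
Log2 difference between temperatures in TGMS-Co27 (vertical axis) against that in H1493 (horizontal axis) for the 7 cyclins (black) and the genes of 5 cell cycle lists that average 6 or more in log2 signal, numbers in the key. The dashed line marks equal differences, KRP6 lies at the lower left with -3.93 and -3.64, and CYCB1-3 lies above the line with 1.55 against 0.80.

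Markers of the cell types in an inflorescence moved with temperature too. Of 13 meiocyte markers, 8 rose and 2 fell in TGMS-Co27 and 5 rose and 2 fell in H1493, beside 59.2% and 54.3% of bright probe sets called, and 11 of the 13 were called present on every array. Their summed linear signal ran from 13634 to 14435 in H1493HT, 13518 to 14793 in Co27HT, 22742 to 22772 in H1493LT and 21031 to 22409 in Co27LT. This sum is carried largely by its brightest genes, MEL1 and SPO11-4, and MEL1 alone made up 38.9% to 47.3% of it. In the same order of groups, mean log2 signals were 12.45, 12.67, 13.29 and 13.13 for MEL1. For SPO11-4 they were 11.93, 11.97, 12.83 and 12.85. MER3, a helicase of meiotic crossing over, rose by 1.69 and 1.05, ZIP4, of the same pathway, fell by 1.53 and fell by 0.78, and DMC1, the meiotic recombinase, had -0.21 and 0.06, not called. These 3 were named after their values were seen. One of these markers, the meiotic cyclin SDS, also stands in the list of other cyclin types.

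Of 10 tapetum markers, 4 were called present on every array. The mean log2 signal was under 6 for 5 of the 10, so the size of the differences of those 5 is not measured. Of the 10, 0 rose in either line, 6 fell in TGMS-Co27 and 3 fell in H1493. Beside them, 29.8% and 26.8% of all probe sets were called, and 59.2% and 54.3% of the bright ones. The 6 became 4 with each array centred on its median or with quantile normalization, and 7 with arrays centred on bright probe sets. The summed signals were 6761 to 7022 in H1493HT, 7874 to 8293 in Co27HT, 6362 to 6852 in H1493LT and 6420 to 6555 in Co27LT. MSP1, a receptor kinase that limits the number of sporogenous cells in the anther, made up 57.0% to 75.6% of this sum on the 12 arrays. The bright markers were MSP1, GAMYB, EAT1, TDR and CYP703A3. In that order, their mean log2 signals were 12.46, 10.17, 8.82, 8.91 and 7.22 in Co27HT. In Co27LT they were 12.24, 10.13, 7.98, 7.11 and 5.62. The means were 11.97, 10.41, 8.80, 8.76 and 8.32 in H1493HT, and 12.09, 10.32, 8.45, 8.17 and 7.26 in H1493LT. Of 10 floral organ markers, all bright, 5 fell in TGMS-Co27, and 5 fell and 1 rose in H1493 (2 fell and 2 rose with each array centred on its median). These counts stand beside 59.2% and 54.3% of bright probe sets called. Their sums were 37308 to 38790, 39543 to 40710, 34534 to 35438 and 31629 to 32627 in the same order of groups. Of the 4 green tissue markers, 2 were called present on every array, and 2 rose and 1 fell in both lines, beside the same shares called. They summed to 4730 to 5595 in H1493HT, 1742 to 2018 in Co27HT, 23748 to 25261 in H1493LT and 16497 to 16782 in Co27LT. CAB2R made up 39.8% to 81.4% of this sum on the 12 arrays. No marker of the meiocyte, tapetum or floral organ lists was at 0, and 1 green tissue marker was at 0 on some array of Co27HT, H1493LT and Co27LT. The part of these shifts in the differences of the cyclins was not tested.

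**Figure D4:**
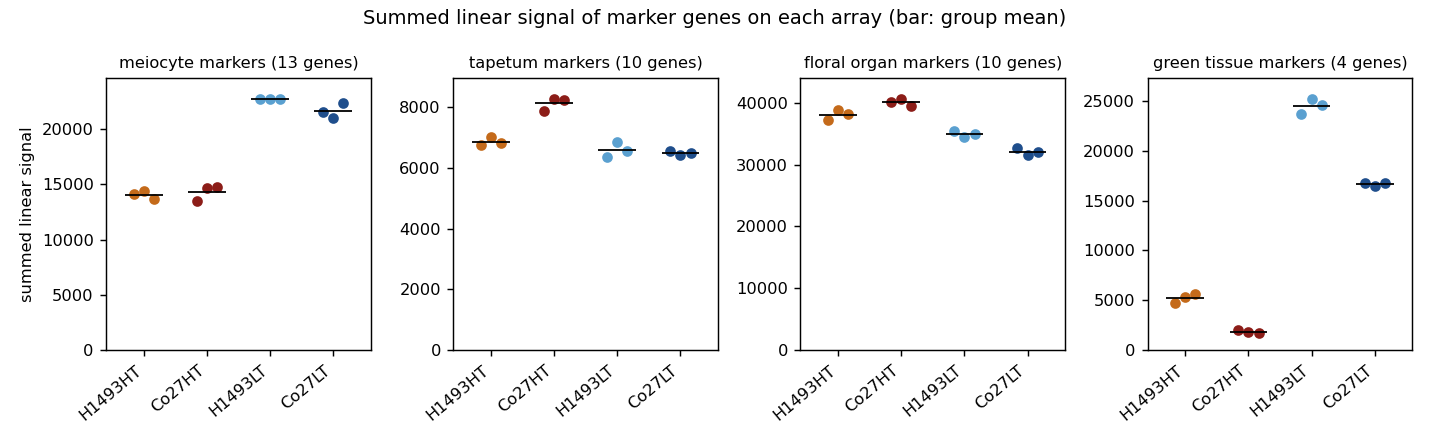
Summed linear signal (vertical axes, from 0) of 4 lists of marker genes on each array, by group (horizontal axes). Points are single arrays and bars are group means of 3 arrays. The meiocyte sums are 13518 to 14793 on the HT arrays and 21031 to 22772 on the LT arrays, and the green tissue sums are lowest in Co27HT at 1742 to 2018. MEL1 makes up 38.9% to 47.3% of the meiocyte sums and CAB2R 39.8% to 81.4% of the green tissue sums.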

How the data were processed

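Total RNA of 12 samples was hybridised to Affymetrix rice arrays. The deposited values are log2 signals of probe sets, which the authors made with GeneChip Operating Software and MAS 5.0, and detection calls. The methods name quantile normalization, but the arrays do not share 1 distribution and each has a 2% trimmed mean of 500.065 to 500.076 in linear signal. Values were used as deposited. On each array 545 to 1971 values are 0.

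Of 57381 probe sets, 123 controls were left out. Differences were computed with limma 3.58.1 in R 4.3.3 (lmFit, contrasts.fit, eBayes, 4 group means, all 12 arrays, no replicate block) with Benjamini-Hochberg adjustment over 57258 probe sets, and the fit was tested on simulated data. Intervals cover 95%. The number of arrays limits the precision. Replicates are biological by their labels, with no further detail. The p-values weigh each difference against the spread between replicates, which does not cover variation between sites or seasons.

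Names came from the array annotation (22436 probe sets with 1 gene, 95 with several, 34727 with none), whose 17905 genes were all matched by gene number to RefSeq names of ASM3414082v1. The files name no genome build, so no coordinates are given. Synonyms that belong to another gene led to 4 matches being dropped. The Ugp1 probe set was found through the locus that the study's tables give. Named genes are all members and, of each pathway list, up to 3 called genes with the largest difference in Co27LT vs. Co27HT, unless said otherwise. The members and lists were chosen with earlier results of these data known. The alternatives were 3 scalings (1 chosen after seeing the data), a floor at 5, 2 filters, other moderation, only the 6 arrays compared, the block, other call rules, another probe set rule and each array left out. The other probe set rule allowed those marked as cross-reacting, and for the cyclins it picked the same probe sets.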

Additional observations from a re-analysis of the deposited data

Results flagged for a closer look

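No cyclin of the A or B type was flagged, and no group had enough arrays for a check of single outlying arrays. In 2 genes of the cell cycle lists the difference between temperatures itself differed between the lines by the interaction test in limma, where 0.936% of all probe sets were called. EL2, a rice CDK inhibitor of the SIAMESE type, had an interaction of 0.71 (adjusted p = 0.032): its mean log2 signal was 13.16 in H1493HT, 13.14 in Co27HT, 12.66 in H1493LT and 13.35 in Co27LT, and the LT groups did not overlap. That call was lost in 3 of 8 other settings, where the adjusted p ran from 2.5e-06 to 0.11. CYCP4-1, a P-type cyclin, had an interaction of -0.95 (adjusted p = 0.033), with means of 9.20 in H1493HT, 9.79 in Co27HT, 9.32 in H1493LT and 8.96 in Co27LT. It was lost in 2 of 8 other settings (adjusted p 0.00043 to 0.20).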

How the results depend on the processing

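The counts of cyclins called between LT and HT were 7 for TGMS-Co27 and 6 for H1493. They held under all 3 other scalings, the floor, both filters, other moderation and the 6 arrays alone. The other probe set rule picked the same probe sets, so it could not change any count. A size criterion of 2-fold gave 4 and 2 with adjusted and unadjusted p alike. In Co27HT vs. H1493HT the count of 0 became 3 with a floor of 5, 4 with probe sets averaging 6 or more only, 3 with probe sets present on at least 1 array, 4 with limma-trend and robust moderation, and 1 (CYCB1-1) with arrays centred on the median of the brighter probe sets. In Co27LT vs. H1493LT it became 2 with the floor and 1 with the filter at 6, and for the interaction 2 with either. Fewer dim probe sets tested is part of the construction of the filters, and the cause in the others was not tested. Leaving out each array in turn gave 7, 6, 0, 0 and 0 throughout. For single cyclins, 706 of 728 other values kept their side of the threshold, 22 passed it only under the alternative and 0 turned. Scaling moved the median of all probe sets in Co27LT vs. Co27HT from -0.16 to 0.12 with median centring and -0.32 with the brighter probe sets, and that in H1493 from -0.07 to 0.11 and -0.15. The medians of the cyclins were then 1.39 and 0.95 in TGMS-Co27 and 1.01 and 0.75 in H1493. With the replicate number as a block the counts were 7, 6, 0, 0 and 0. Arrays of the same number had correlated deviations of only -0.01 to 0.03 over 18 pairs, 0 of them over 0.1. These correlations were taken over all probe sets, dim ones included, so they cannot decide whether arrays of the same number share a batch.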

Other observations

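Some cyclins of other types differed between the lines. In Co27HT vs. H1493HT, 2 of 19 were called higher and 1 lower, where 2.58% of all probe sets were called. CYCD3-2, a D-type cyclin, ran from 9.95 to 10.02 in H1493HT and from 10.48 to 10.67 in Co27HT, 0.56 higher (adjusted p = 0.014), CYCP4-1 was 0.60 higher (adjusted p = 0.033), and CYCD4-1 was lower by -0.36 on the log2 scale (adjusted p = 0.047). In Co27LT vs. H1493LT, 2 were called higher, where 1.58% of all probe sets were called. CYCD6-1 ran from 9.46 to 9.81 in H1493LT and from 10.18 to 10.27 in Co27LT, 0.65 higher (adjusted p = 0.031), and CYCD2-2 was 0.44 higher (adjusted p = 0.035). RSS1 was 0.46 higher in Co27HT (adjusted p = 0.030). These genes were named after their values were seen, and each of these calls was lost in 3 or 4 of 9 other settings.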
